A study of Tribolium castaneum with 183 samples.

Results

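Vitellogenins are the yolk precursor proteins of insects. They are made mainly in the fat body of reproducing females, secreted into the hemolymph and taken up by the growing oocytes through vitellogenin receptors. In beetles their transcription is known to depend on juvenile hormone, with nutrition acting through the insulin and TOR pathways. The genes described here are Vg1 (TC013602) and Vg2 (TC010839) of the red flour beetle *Tribolium castaneum*, chosen by their identifiers in the table of counts, so 2 of its 17078 genes. Their names come from the study's list of reproduction genes.

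RNA was taken from single whole females of the Cro1 strain, labelled as reproducing and 8 weeks old. The study's text gives a later age, and offspring of single females were not used here, so that each female was laying is known only from the label. The groups were Dry (33°C and 30% relative humidity, 48 females), Hot (37°C and 70%, 45 females), Hot-Dry (37°C and 30%, 43 females) and Control (33°C and 70%, 47 females). According to the methods, beetles entered their condition as eggs. The females came from 12 full-sib families, each split over all 4 conditions, with 3 or 4 females per family and condition. Each family had 1 vial per condition, so the effects of a family and of its vial within a condition cannot be told apart.

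Libraries held 4873334 to 15533288 counts, with ranges that overlapped between all conditions, and 6 libraries held fewer than 6000000. The factors of the normalization by trimmed mean of M values (TMM) ran from 0.768 to 1.19 in Dry, from 0.826 to 1.25 in Hot, from 0.877 to 1.29 in Hot-Dry and from 0.710 to 1.26 in Control. A whole beetle holds many tissues, and fewer cells of a type and less RNA per cell cannot be told apart. Transcripts of the 14 genes listed as ovarian (among them Vasa and Piwi, germline genes) were present in the females. Of these genes 13 had counts in every female, and TC011220 was at 0 in 2 females.

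Vg1 and Vg2 drew more reads than nearly every other gene. Over all females Vg1 held 9.19% and Vg2 6.46% of all counts, and the next gene, TC007186, held 1.75%. Reads per gene also grow with transcript length, which is not used here. Vg1 ranked first by counts in 47 of 48 Dry, 42 of 45 Hot, 38 of 43 Hot-Dry and 45 of 47 Control females. Vg2 ranked second in 47 Dry, 40 Hot, 36 Hot-Dry and 45 Control females. Together they took a mean of 17.9% ± 4.1 of a female's counts in Dry, 14.4% ± 4.8 in Hot, 11.5% ± 4.9 in Hot-Dry and 17.6% ± 5.2 in Control (SD over females).

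The median share of Vg1 was similar in Dry and Control, lower in Hot and lowest in Hot-Dry. Its share of counts ran from 5.26% over a median of 10.7% to 15.9% in Dry. It ran from 0.402% over a median of 8.83% to 12.5% in Hot, and from 0.0381% over a median of 7.74% to 13.3% in Hot-Dry. In Control it ran from 1.93% over a median of 10.2% to 18.7%. The ranges of all conditions overlapped, and as ratios their lower ends were much farther apart than their upper ends.

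Vg2 had the same order of medians. Its share ran from 4.12% over a median of 7.65% to 11.6% in Dry, and from 0.218% over a median of 6.43% to 8.61% in Hot. In Hot-Dry it ran from 0.0374% over a median of 4.91% to 7.77%. In Control it ran from 1.15% over a median of 7.50% to 11.4%. The upper quartile of the Hot-Dry females, 5.91%, lay below the lower quartile of the Dry females, 6.25%. In cpm (TMM-normalised counts, scaled to a common library size), Vg1 averaged 108182 ± 34548 in Dry, 87571 ± 33437 in Hot, 68475 ± 32612 in Hot-Dry and 108286 ± 44928 in Control. Vg2 averaged 78211 ± 23361 cpm in Dry, 59488 ± 23587 cpm in Hot, 44935 ± 21675 cpm in Hot-Dry and 79222 ± 31624 cpm in Control (SD over females).

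**Figure D1:**
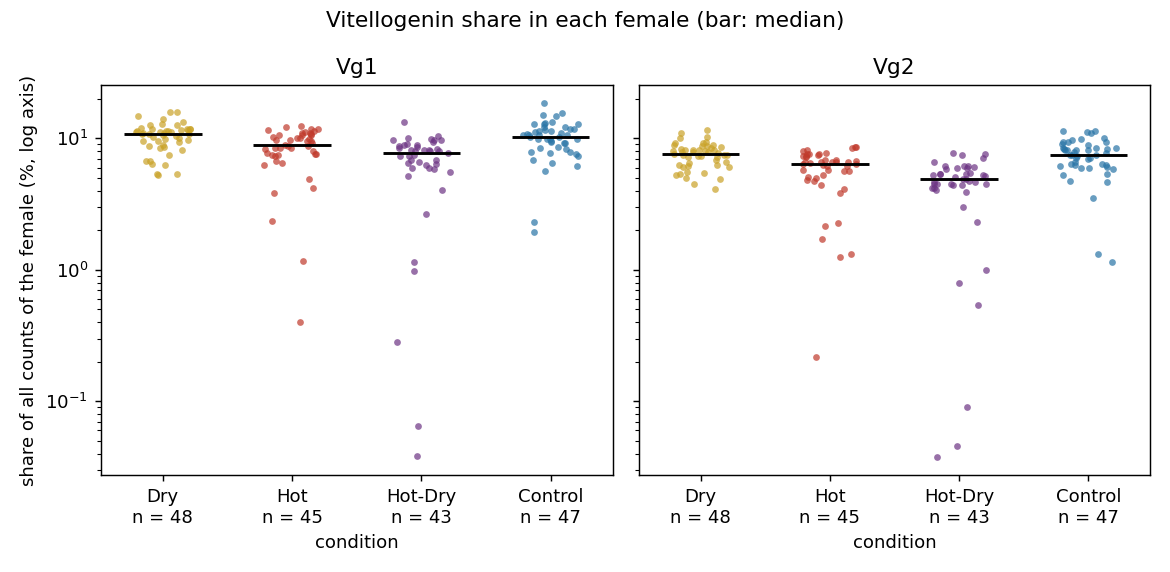
Share of all counts on Vg1 and on Vg2 (percent, log axis) in each female of the 4 conditions; points are females and bars are medians. For Vg1 the medians are 10.7% in Dry, 8.83% in Hot, 7.74% in Hot-Dry and 10.2% in Control. A few Hot and Hot-Dry females lie far below, down to 0.0381% in Hot-Dry, whereas no Dry female lies under 5.26%.

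A small number of females had far lower vitellogenin shares than most, and the lowest of them were in the hot conditions. The lowest was female 1 of family 1077 in Hot-Dry, with 3677 Vg1 and 3610 Vg2 counts of 9644207, ranks 354 and 362 among the genes of that female. The next were female 4 of family 293 in Hot-Dry (4361 and 3034 counts), female 4 of family 638 in Hot-Dry (18133 and 5811 counts) and female 1 of family 863 in Hot (20929 and 11326 counts). These were the 4 females with under 1% of their counts on both genes together. The Wilson 95% interval of the lowest Vg1 share ran from 0.0369% to 0.0394%, which covers counting error only, and over all females the interval's half-width was at most 3.56% of the share. Most siblings of these females in the same condition were not low. In family 1077 the other Hot-Dry females had between 50540 and 70923 cpm of Vg1, against 296 cpm in female 1, and in family 638 they had between 89458 and 117814 cpm, against 2668 cpm in female 4. In Hot, the other females of family 863 had 76923 and 79810 cpm, against 3396 cpm in female 1. Family 293 differed, since female 2 in Hot-Dry was low as well, with 10414 cpm of Vg1, against 558 cpm in female 4 and 83870 cpm in female 1.

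Females below 50% of the Control median (5.12% of counts for Vg1) numbered 0 of 48 in Dry, 6 of 45 in Hot, 7 of 43 in Hot-Dry and 2 of 47 in Control. The Hot and the Hot-Dry females came from 5 families each. For Vg2 (below 3.75% of counts) the numbers were 0 in Dry, 6 in Hot, 8 in Hot-Dry and 3 in Control. These counts describe the lower tail, with no test.

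In the model across all 12113 genes tested (edgeR's quasi-likelihood test with Benjamini-Hochberg adjustment, genes called at an adjusted p of at most 0.05), both vitellogenins fell in Hot-Dry relative to Control. Vg1 fell by 36.8% (log2 fold change -0.66 ± 0.17, SE, adjusted p = 0.00154, edgeR) and Vg2 fell by 43.3% (-0.82 ± 0.18, adjusted p = 0.000111, edgeR). Of all genes tested, 15.1% were called lower in this comparison, so a call alone does not set the vitellogenins apart. The median size of a change over all genes was 0.13 on the log2 scale. Relative to Dry the Hot-Dry females differed by nearly the same amounts, -0.66 ± 0.17 for Vg1 (adjusted p = 0.00142, edgeR) and -0.80 ± 0.18 for Vg2 (adjusted p = 0.000138, edgeR), where 15.8% of genes were called lower. Both comparisons use the same Hot-Dry females. Without the 4 females with under 1% vitellogenin counts, which selects on the level itself, the changes in Hot-Dry against Control were -0.55 for Vg1 and -0.71 for Vg2, and both were still called (adjusted p = 0.000601 and 1.42e-05, edgeR). With limma-voom and an estimated correlation among siblings of a condition, the changes were larger but less certain, -1.01 for Vg1, no longer called (adjusted p = 0.0505, limma), and -1.19 for Vg2 (adjusted p = 0.0230, limma).

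In Hot alone neither gene was called. Vg1 had a log2 fold change against Control of -0.31 ± 0.17 (adjusted p = 0.188, edgeR) and Vg2 one of -0.41 ± 0.17 (adjusted p = 0.0690, edgeR), where 12.2% of genes were called lower. With Hot against Dry the values were -0.30 for Vg1 (adjusted p = 0.164) and -0.39 for Vg2 (adjusted p = 0.0695, edgeR), where 16.1% of genes were called lower. Whether Vg2 was called depended on 1 family and on the lowest females. Without family 293 Vg2 was called in Hot against Control (-0.45, adjusted p = 0.0293, edgeR) and in Hot against Dry (-0.45, adjusted p = 0.0244, edgeR), and likewise without the 4 lowest females (-0.38 with adjusted p = 0.0275 and -0.36 with adjusted p = 0.0293, edgeR).

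In Dry no difference from Control was found for either gene. The log2 fold change was -0.00 ± 0.17 for Vg1 (adjusted p = 0.998, edgeR) and -0.02 ± 0.17 for Vg2 (adjusted p = 0.997, edgeR), and 0.388% of genes were called lower. The interval of 1.96 SE around these values ran from -0.33 to 0.33 for Vg1 and from -0.35 to 0.32 for Vg2. Changes within these limits were thus not excluded in Dry. A call over all genes can need a larger change, since -0.41 ± 0.17 for Vg2 in Hot against Control was not called. The sign of both values was not stable under other settings.

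Hot-Dry females also had lower values than Hot females, -0.35 ± 0.18 for Vg1 and -0.40 ± 0.18 for Vg2, but neither was called (adjusted p = 0.350 and 0.264, edgeR) in a comparison in which 1.29% of genes were called lower. The heat by drought interaction asks whether the combined change differs from the sum of the single ones. It was -0.35 ± 0.24 for Vg1 and -0.39 ± 0.25 for Vg2 and was called for neither (unadjusted p = 0.147 and 0.121, adjusted p = 1.000 for both, edgeR). Of all genes 0.00826%, a single gene, was called for it.

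**Figure D2:**
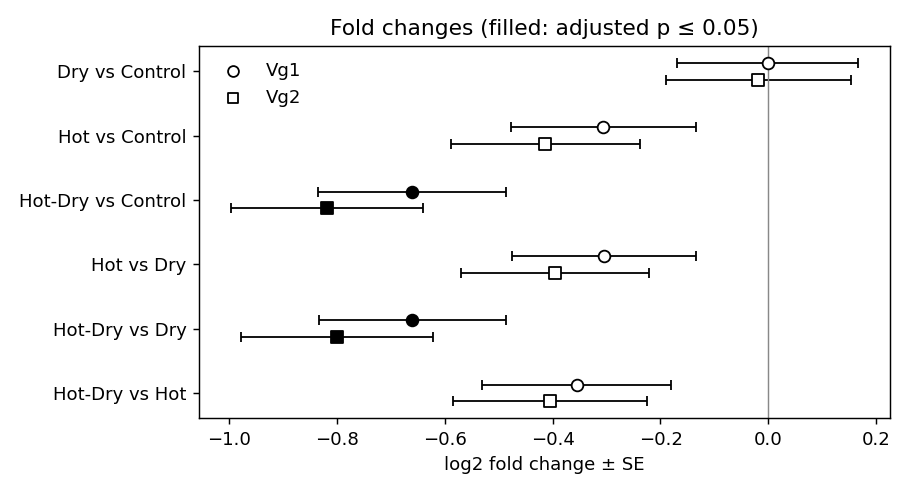
Log2 fold changes of Vg1 and Vg2 with their SE in the 6 pairs of conditions, with the first named condition over the second; filled symbols mark an adjusted p of at most 0.05. The Dry values lie at 0, the Hot values lie between -0.30 and -0.41 and are open, and the 4 filled symbols are those of Hot-Dry against Control and against Dry, between -0.66 and -0.82.

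The families give a second view, because each was present in every condition and its mean can be set against that of its own siblings. The share of Vg2 was lower in Hot-Dry than in Control in 12 of 12 families, with means of 4.56% in Hot-Dry and 7.40% in Control (mean difference -2.84 ± 1.82 percentage points, SD over families). An exact sign-flip test (two-sided) of the family differences gave p = 0.000488, the smallest it allows, and 0.00439 after adjustment over the 18 share tests. The Vg1 share averaged 6.94% in Hot-Dry and 10.1% in Control, a difference of -3.14 ± 2.78 percentage points (exact sign-flip test, adjusted p = 0.00879). It was higher in Hot-Dry in 2 families, 245 with 8.12% in Hot-Dry and 7.26% in Control, and 799 with 9.30% in Hot-Dry and 8.70% in Control. The largest losses were in family 710, with 4.9% in Hot-Dry and 13.8% in Control, and in families 496, with 6.80% in Hot-Dry and 12.5% in Control, and 1077, with 5.05% in Hot-Dry and 10.3% in Control.

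In Hot, the family means of Vg2 were 5.78% in Hot and 7.40% in Control, lower in Hot in 8 of 12 families, and passed this test (-1.61 ± 1.76 percentage points, exact sign-flip test, adjusted p = 0.0202). With family medians in place of means Vg2 no longer passed (-1.39 percentage points, exact sign-flip test, adjusted p = 0.0580). The Vg1 share averaged 8.47% in Hot and 10.1% in Control and did not pass (-1.61 ± 3.04 percentage points, exact sign-flip test, adjusted p = 0.115). Against Dry, both shares were lower in Hot, with means of 8.47% in Hot and 10.4% in Dry for Vg1 (adjusted p = 0.0176) and of 5.78% in Hot and 7.53% in Dry for Vg2 (adjusted p = 0.00439, exact sign-flip tests). With family medians neither passed (adjusted p = 0.200 for Vg1 and 0.0767 for Vg2, exact sign-flip tests).

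Hot-Dry and Hot differed by -1.53 percentage points for Vg1 and by -1.22 for Vg2 (exact sign-flip tests, adjusted p = 0.0453 and 0.0439). These calls lie at the threshold. They were lost on the log2 scale of the share (adjusted p = 0.142 for both), and without any one of families 103, 1077, 293, 348, 432, 638 or 710, where the highest adjusted p was 0.0906 for Vg1 and 0.0879 for Vg2. The shares in Dry and Control differed by 0.31 ± 2.38 percentage points for Vg1 and 0.13 ± 1.80 for Vg2 (exact sign-flip tests, adjusted p = 0.745 and 0.794).

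**Figure D3:**
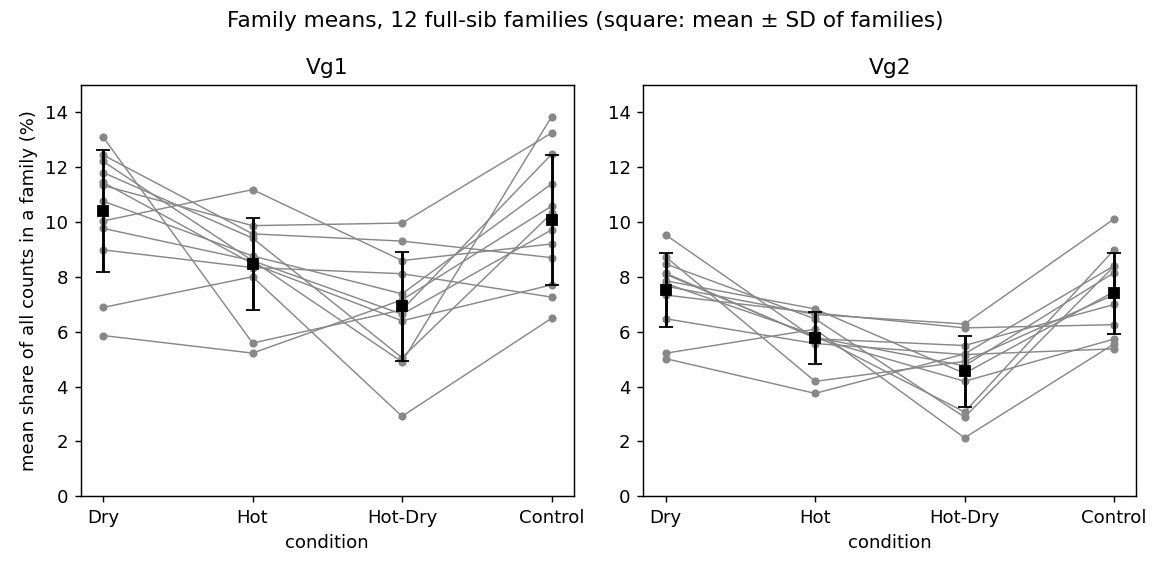
Mean share of all counts on Vg1 and on Vg2 (percent) in each of 12 full-sib families in the 4 conditions; grey lines join the means of a family, and squares with bars give the mean and SD over families. For Vg2 every family lies lower in Hot-Dry than in Control, and for Vg1 2 of 12 families lie higher in Hot-Dry.

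The genes did not keep a fixed ratio. The ratio of Vg1 to Vg2 counts had a median of 1.37 in Dry, 1.47 in Hot, 1.49 in Hot-Dry and 1.31 in Control. Since both genes are counted in the same library, it does not depend on the normalization. Its log2 value over family means was 0.63 in Hot-Dry and 0.45 in Dry, higher in Hot-Dry in 11 of 12 families (difference 0.17 ± 0.17, SD, exact sign-flip test, p = 0.00293, adjusted over 6 pairs 0.0176). Against Control, with 0.63 in Hot-Dry and 0.46 in Control, the difference was of the same size and did not pass (0.17 ± 0.21, exact sign-flip test, adjusted p = 0.0674). It passed without family 432 (adjusted p = 0.0498) and without family 496 (adjusted p = 0.0117, exact sign-flip tests). With 0.57 in Hot and 0.46 in Control the difference of 0.12 did not pass (exact sign-flip test, adjusted p = 0.204), and Hot-Dry and Hot differed by 0.05 (adjusted p = 0.591). The ratio was lowest in female 3 of family 293 in Hot, at 0.888, and highest in female 1 of family 710 and female 4 of family 638, both in Hot-Dry, at 3.34 and 3.12. In 2 females Vg2 had more counts than Vg1.

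**Figure D4:**
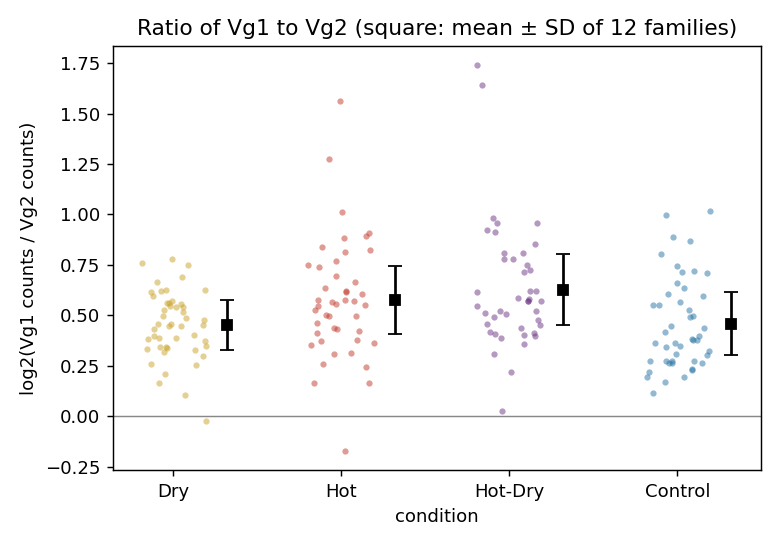
Log2 ratio of Vg1 to Vg2 counts in each female of the 4 conditions (points) and the mean and SD of the 12 family means (squares with bars). The family means average 0.45 in Dry, 0.57 in Hot, 0.63 in Hot-Dry and 0.46 in Control, and the highest single values are in Hot-Dry.

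Females with much Vg1 also had much Vg2. The log2 cpm values of the genes correlated over the females of each condition, with Pearson's r = 0.943 and Spearman's rho = 0.913 in Dry, 0.960 and 0.909 in Hot, 0.986 and 0.926 in Hot-Dry and 0.957 and 0.903 in Control. Each of these had a permutation p of 1e-05 (100000 permutations, two-sided, also after adjustment over the 4 conditions), the smallest they can give. Without the 2 females farthest from the median of Vg1, r was 0.936 in Dry, 0.921 in Hot, 0.975 in Hot-Dry and 0.913 in Control. Other low females stayed in, such as female 4 of family 638 in Hot-Dry, so these values do not show the relation among the higher females alone. Over the 12 family means r was 0.971 in Dry, 0.958 in Hot, 0.987 in Hot-Dry and 0.955 in Control. Both genes share a library and its depth, and each takes counts from the same total.

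**Figure D5:**
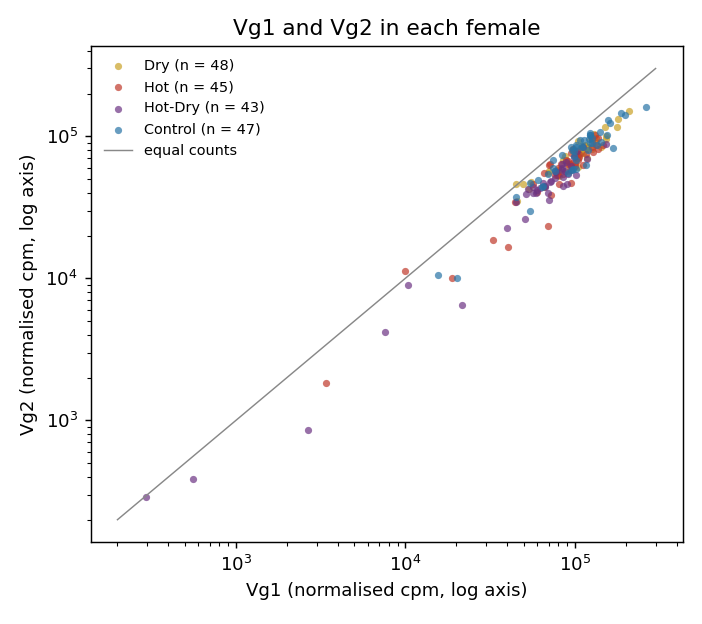
Normalised cpm of Vg2 against those of Vg1 (log axes) in each female, coloured by condition; the grey line marks equal values. Females of all conditions lie along 1 band, nearly all of them below the line and 2 above it, with the 3 lowest Hot-Dry females between 296 and 2668 cpm of Vg1.

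Differences among families were called for Vg1 in Dry and Control and for Vg2 in Dry, and for neither gene in the hot conditions. In Dry, 78.5% of the variance of log2 cpm among females lay between families for Vg1 and 70.0% for Vg2 (edgeR's quasi-likelihood test with 11 degrees of freedom, Benjamini-Hochberg adjusted p = 1.77e-06 and 2.99e-05), and 73.8% of all genes were called. The lowest family means in Dry were those of families 863 (5.86% of counts on Vg1) and 293 (6.89%), and the highest those of 496 (13.1%) and 799 (12.5%). In Control, where 73.8% of genes were called too, 46.5% of the variance of Vg1 lay between families (adjusted p = 0.0133, edgeR), and 37.2% of that of Vg2, which was not called (adjusted p = 0.0795, edgeR). Vg2 was called in Control without family 293 (adjusted p = 0.0263) and without family 799 (adjusted p = 0.0122, edgeR), and the Vg1 call was lost when only library size was used to normalise (adjusted p = 0.0591, edgeR).

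In the hot conditions no difference among families was found for either gene, although 68.9% of all genes differed among families in Hot and 50.5% in Hot-Dry. The share of variance between families was 29.4% for Vg1 and 24.3% for Vg2 in Hot (adjusted p = 0.748 and 0.954, edgeR). In Hot-Dry it was 30.5% for Vg1 and 29.2% for Vg2 (adjusted p = 0.880 and 0.903, edgeR). The median of all genes was 50.6% in Hot, 45.6% in Hot-Dry, 49.9% in Dry and 51.5% in Control. Both vitellogenins lay below it in Control as well. A few females with very low values widened the spread within families in the hot conditions, and these tests were not repeated without them. With 12 families a part of this share arises by chance alone, so the size of the share has no meaning without its test.

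Whether families responded differently was tested as an interaction of family and condition. It was called for neither gene, neither in Dry (adjusted p = 0.678 for Vg1 and 0.780 for Vg2, with 18.5% of genes called), nor in Hot (0.400 and 0.750, with 49.3% called), nor in Hot-Dry (0.444 and 0.505, with 44.8% called, edgeR). The log2 fold changes of the families against their own Control siblings spread by an SD of 0.59 for Vg1 and 0.58 for Vg2 in Dry, 0.82 and 0.78 in Hot, and 1.07 and 1.08 in Hot-Dry. Over all females and conditions, condition took 12.7% of the variance of Vg1 and 16.2% of that of Vg2, against a median of 3.89% over all genes. Family took 11.3% for Vg1 and 7.83% for Vg2, against a median of 23.9%. The interaction of family and condition took 18.7% and 17.9%, against 20.9%. Differences among females of 1 family in 1 condition took 57.2% and 58.1%, against 46.3%. A few very low females weigh heavily in these shares. The SD of Vg1 log2 cpm among siblings reached 3.82 in Hot-Dry, where its median over families was 0.35. The shares were not computed without the lowest females.

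Siblings in the same condition had the lowest mean spread in Dry, a difference that did not pass the correction. The SD of log2 cpm among the females of a family averaged 0.23 for Vg1 in Dry and 0.51 in Control, a difference of -0.27, with a lower SD in Dry in 9 of 12 families (exact sign-flip test, p = 0.0327, adjusted over 6 tests 0.123). For Vg2 the means were 0.24 in Dry and 0.57 in Control (difference -0.33, adjusted p = 0.123, exact sign-flip test). Without family 1077 both differences passed (adjusted p = 0.0146 for both, exact sign-flip test). In Hot-Dry the mean SD was 1.19 for Vg1 and 1.28 for Vg2, against 0.51 and 0.57 in Control, and neither difference passed (adjusted p = 0.238 and 0.218, exact sign-flip tests). These means rested on few females. The median SD of a family was 0.35 for Vg1 in Hot-Dry and 0.37 in Control, and without the 4 lowest females the difference of the means was 0.05 for Vg1, where it had been 0.68.

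The genes whose levels followed the vitellogenins most closely were sought over all females after removing the mean of each condition, among 8756 genes with at least 5 cpm. Vg1 and Vg2 followed each other with a Spearman's rho of 0.934. For both, the next gene was TC007186, with a rho of 0.684 to Vg1 and 0.760 to Vg2. It was also the third gene by counts, and its log2 fold change in Hot-Dry against Control was -0.68 (adjusted p = 0.00902, edgeR). The 5 genes most like Vg1 further held TC013893 (0.635), TC015320 (0.628), TC012361 (0.588) and TC012672 (0.585), and those most like Vg2 held TC015320 (0.652), TC012672 (0.645), TC016271 (0.644) and TC013893 (0.609). The genes that ran most against Vg1 were TC001338 (-0.50), TC007728 (-0.46) and TC013580 (-0.46), and those against Vg2 were TC009197 (-0.486), TC011676 (-0.474) and TC011411 (-0.458). For comparison, 90% of all genes lay between -0.232 and 0.290 for Vg1. These values are a description over females that share libraries with the vitellogenins, and none of these genes is named in the annotation used here.

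TC007186 stood at 34.9, 98.1 and 30.9 cpm in the 3 lowest Hot-Dry females (of families 1077, 293 and 638), the 3 lowest values of that condition, where the median was 14824 cpm. In female 1 of family 863 in Hot it was 208 cpm, the lowest of 45 with a median of 18003 cpm. TC007186 was chosen because it followed the vitellogenins over these same females, so its low values here are no separate finding. The same 3 Hot-Dry females had the lowest values of TC003437, which is listed as JHEH, an epoxide hydrolase that breaks down juvenile hormone, at 0.724, 0.768 and 1.18 cpm, against a median of 67.8 cpm in Hot-Dry. The Hot female of family 863 did not share this, with 76.3 cpm and a median of 59.7 cpm in Hot. In Control the female lowest in Vg1, female 2 of family 799, also had the lowest TC003437 (20.8 cpm, median 64.3 cpm). The female next in Vg1, female 4 of family 293, had 62.8 cpm. TC013193, listed as the esterase JHE, ranked 43, 16 and 15 from the lowest of 43 in the 3 Hot-Dry females. The receptor VgR-2 (TC008596) stood at 383, 265 and 354 cpm in the 3 Hot-Dry females, where the Hot-Dry median was 415 cpm. These values ranked 11, 1 and 6 from the lowest of 43. The receptors VgR (TC008595) and VgR-1 (TC004042) ranked 3 to 9 from the lowest in these females. Among other low females the receptors were mixed. In Hot-Dry, VgR-2 ranked 32 of 43 in female 3 of family 348 and 18 in female 2 of family 293. In Hot it ranked 6 of 45 in female 1 of family 863 and 31 in female 3 of family 293. In Control it ranked 46 of 47 in female 2 of family 799 and 2 in female 4 of family 293.

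Vitellogenin receptors take yolk protein into the oocyte. Of the 4 genes listed as such, 3 fell in Hot and in Hot-Dry, and in Hot-Dry the fold changes of all 4 were smaller than those of the vitellogenins. VgR-1 (TC004042), VgR (TC008595) and VgR-2 (TC008596) were called lower in both Hot and Hot-Dry, and VgR2 (TC008425) was called in neither (adjusted p = 0.113 in Hot and 0.104 in Hot-Dry, edgeR). In Hot this order of sizes did not hold. There VgR-1, VgR and VgR-2 changed by -0.34 each and VgR2 by -0.28, beside -0.31 for Vg1 and -0.41 for Vg2. Of all genes, 12.2% were called lower in Hot and 15.1% in Hot-Dry. VgR-2, the receptor gene with the most counts, had a median of 504 cpm in Dry, 413 cpm in Hot, 415 cpm in Hot-Dry and 509 cpm in Control. Against Control it changed by -0.34 ± 0.05 in Hot and by -0.27 ± 0.05 in Hot-Dry on the log2 scale. Over females within conditions the receptors hardly followed the vitellogenins, with a rho to Vg1 between 0.005 and 0.156. The difference in size between receptors and vitellogenins was not tested.

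Of the 7 juvenile hormone genes none was called higher in Hot or Hot-Dry. In Hot, where 12.2% of all genes were called lower, 2 of 7 were, TC008471, listed as JHAMT, a methyltransferase of juvenile hormone synthesis (-0.44 ± 0.13, adjusted p = 0.00727, edgeR), and TC013193, listed as JHE, an esterase that breaks the hormone down (-0.14 ± 0.05, adjusted p = 0.0137, edgeR). In Hot-Dry, where 15.1% of all genes were called lower, 2 of 7 were, TC008471 again (-0.38 ± 0.13, adjusted p = 0.0212, edgeR) and TC003908, listed as Met, the hormone's receptor (-0.25 ± 0.10, adjusted p = 0.0467, edgeR). Kr-h1B (TC012990), a transcription factor induced by the hormone, had -0.23 ± 0.16 in Hot and -0.18 ± 0.16 in Hot-Dry and was not called. Within conditions the JHEH genes TC003437 and TC002992 followed Vg2 with a rho of 0.448 and 0.375, and JHE ran against it with -0.362. The level of TC008471 was low, with a mean of 2.20 cpm.

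Of the 54 listed reproduction genes other than the vitellogenins, none was called in Dry, where 0.388% of all genes were called lower and 0.421% higher. In Hot, 19 were called lower and 0 higher, where 12.2% of all genes were called lower and 12.9% higher. In Hot-Dry, 23 were called lower and 2 higher, where 15.1% of all genes were called lower and 15.7% higher. Over these 54 genes the fold changes had a median of -0.08 (log2) in Hot and of -0.14 in Hot-Dry, where the median over all genes was -0.01 in both. The 14 ovarian genes had a median of -0.08 in Hot and -0.17 in Hot-Dry, and 7 of 14 were called lower in each and 0 higher, beside the same shares of all genes. Their summed level ran from 1300 to 1739 cpm in Dry, from 1107 to 1545 cpm in Hot, from 1053 to 1447 cpm in Hot-Dry and from 1266 to 1624 cpm in Control. It moved with the vitellogenins between conditions, and its part in their change was not tested. In the 3 lowest Hot-Dry females it was 1086, 1254 and 1053 cpm, the second lowest, the ninth lowest and the lowest of 43. In female 3 of family 348 and female 2 of family 293, also low in Hot-Dry, it ranked 23 and 12 from the lowest.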

How the data were processed

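The authors deposited 1 table of raw counts (whole numbers of reads per gene, no normalization) for 183 females. Per the methods and the submitters' processing notes, libraries were made from mRNA and sequenced single-end, reads were mapped with STAR 2.5 to the Tcas3 assembly and counted with featureCounts. Treatment of strand and of multiply mapped reads is not stated, so reads shared by similar vitellogenin genes could be split. Columns were matched to samples by their titles, and females were grouped by the labels' condition. A female's number within its family is not stated to mark anything shared across conditions.

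Genes with more than 0.5 cpm in at least 5 females were kept (12113 of 17078). Fold changes came from edgeR 4.0.16 (TMM, quasi-likelihood test on 1 factor of 4 conditions, as fitted over all females, R 4.3.3), with Benjamini-Hochberg adjustment over all genes. The SE is the size of the log2 fold change divided by the root of F. Log2 cpm used a prior count of 2. Family means were compared with exact two-sided sign-flip tests (4096 sign patterns, scipy 1.17.1), adjusted within each kind of measure. Correlations used 100000 permutations. Alternatives used other normalizations, filters, DESeq2 1.42.0, limma 3.58.1, blocks and left-out families. The edgeR test of conditions and the sign-flip test were first run on simulated data, in which females and families were independent. Families pair the conditions by design, since siblings were split over them. Deviations of females with the same 2 numbers correlated by a mean of 0.191 between conditions, and those of siblings with other second numbers by 0.196.

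Vg1 and Vg2, the lists and the tests were chosen with earlier results of these data known. Named genes are these 2, the listed vitellogenin and juvenile hormone genes, and for each vitellogenin the 5 genes most and the 3 least like it by Spearman's rho. Other genes named were chosen after their values were seen. No sequence is shown. P-values measure the spread between these females and families, in which siblings of a vial are not independent.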

Additional observations from a re-analysis of the deposited data

Results flagged for a closer look

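Within groups of 4 females of 1 family and condition, a single female stood far from its 3 siblings in 9 of 78 such groups of log2 cpm values, where chance alone gives about 1 in 20. The gap to the nearest sibling, as a fraction of the group's whole range, is given with each. In Hot-Dry, female 1 of family 1077 was low for Vg1 (0.938, 296 cpm against 50540 to 70923 cpm in its siblings) and for Vg2 (0.912, 290 cpm against 25978 to 40076 cpm). Female 4 of family 638 in Hot-Dry was low for Vg1 (0.927) and for Vg2 (0.900, 855 cpm against 46052 to 71762 cpm). Female 3 of family 348 in Hot-Dry was low for Vg2 (0.881, 4170 cpm against 42172 to 57618 cpm).

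The pattern was not limited to the hot conditions. Female 2 of family 799 in Control was low for Vg1 (0.935, 15573 cpm against 107382 to 122867 cpm) and for Vg2 (0.945, 10627 cpm against 90219 to 102111 cpm). Smaller gaps were found for Vg2 in female 2 of family 1005 in Control (0.833, 72821 cpm against 129347 to 145157 cpm) and in female 4 of family 432 in Dry (0.852, 52703 cpm against 78330 to 83918 cpm). The values of both genes in a female are not independent, since they correlated strongly.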

How the results depend on the processing

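Over 62 results, 457 of 490 alternatives and 647 of 696 fits without 1 family kept direction and side of the threshold, and the cause of each other change was not tested. In Dry against Control, where values lay near 0, the sign changed. Vg1 had 0.000245 with upper-quartile normalization, 0.0331 with library size only, 0.0661 with limma-voom, 0.00878 with the replicate block, 0.00979 with the family block, 0.00378 with summed counts and the family block, 0.0777 with limma-voom and a correlation of siblings, and 0.0242 without libraries under 6000000 counts. Vg2 had 0.0171 with library size only, 0.0657 with limma-voom, 0.0125 with the replicate block, 0.0750 with the correlation of siblings and 0.00150 without small libraries. With family medians the differences of Dry and Control were -0.0867 percentage points for Vg2, -0.0458 for both and 0.0212 for the log2 ratio.

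In Hot-Dry against Control, limma-voom with a correlation of siblings (estimated at 0.350) gave -1.01 for Vg1, no longer called (adjusted p = 0.0505), and plain limma-voom gave -1.02. Without the 4 females under 1% of counts (chosen after seeing the data), Vg2 was called in Hot against Control (-0.38) and against Dry (-0.36). When single females were permuted instead, the pairing by family was dropped and siblings of a vial were treated as independent. Further differences then passed. For Hot against Control these were -1.60 (Vg1 share), -3.22 (both) and 0.12 (ratio). For the ratio they were 0.18 in Hot-Dry against Control and 0.12 in Hot against Dry. Family medians lost Hot against Dry at -1.27 (Vg1), -1.30 (Vg2) and -2.52 (both), and Hot against Control at -1.39 (Vg2). The log2 share lost Hot-Dry against Hot at -0.56 (Vg1), -0.61 (Vg2) and -0.58 (both), and the share of the other counts made Hot against Control pass at -4.66 (both). Normalised by library size only, families in Control took 41.1% for Vg1, not called.

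The replicate block kept 12 of 14 fold changes and interactions, with -0.75 for Vg1 and -0.89 for Vg2 in Hot-Dry against Control. Same numbers paired females no better than other siblings (193 of 261 pairs over a correlation of 0.1).

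Without 1 family in turn, Dry against Control ran from -0.0664 to 0.0830 (Vg1) and -0.0800 to 0.0678 (Vg2) as log2 fold change, from -0.000391 to 0.769 (Vg1), -0.0913 to 0.447 (Vg2) and -0.0917 to 1.22 (both) as percentage points, and from -0.0235 to 0.0110 as log2 ratio. Vg2 ran from -0.47 to -0.34 in Hot against Control and from -0.45 to -0.32 in Hot against Dry. Hot-Dry against Hot ran from -1.85 to -1.21 (Vg1), -1.47 to -0.974 (Vg2) and -3.31 to -2.18 (both) percentage points, and both genes together in Hot against Control from -3.74 to -2.60. The log2 ratio in Hot-Dry against Control ran from 0.15 to 0.21. The spread in Dry against Control ran from -0.33 to -0.19 (Vg1) and -0.40 to -0.22 (Vg2), and the variance of Vg2 between families in Control from 32.8% to 48.6%.

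Calls over all genes fell most with counts summed per family and condition, with 1 call in Dry, 740 calls in Hot and 1313 in the Hot-Dry females against Control, where the reported fit made 98, 3041 and 3722, and with the correlation of siblings, with 1, 791 and 1467. Depth limits little here, since a vitellogenin share is known to within 3.56% of itself in every female.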
